A study of Rattus norvegicus with 58 samples.

Results

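The comparison described here set arthritic against healthy rat synovium when both had received the same peptide for the same time. It took the 8 libraries labelled PIA_5d_RTD-1 and the 5 labelled Healthy_5d_RTD-1, 13 of the 58 libraries in the series, chosen by their titles. PIA stands for pristane induced arthritis. The arthritic animals were female DA/OlaHsd rats of 6 to 8 weeks injected with 250 µl of pristane, followed until each rear limb scored at least 3, and then given RTD-1 at 5 mg/kg under the skin, dissolved in saline, for 5 days. The healthy animals had no arthritis and received RTD-1 at the same 5 mg/kg for 5 days as well. The treatment and animal descriptions are common to all samples, and no other strain, sex or age is given for the healthy rats than female DA/OlaHsd of 6 to 8 weeks. None of the 58 libraries is labelled as coming from healthy rats given saline. The comparison therefore holds drug and duration equal but does not separate RTD-1 in healthy joints from injection alone. Beside it stand the same comparison after 3 days (8 PIA_3d_RTD-1 and 5 Healthy_3d_RTD-1 libraries) and the arthritic rats before any treatment against naive rats (4 PIA and 4 Naive libraries). None of these 21 libraries is among the 13.

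Synovium is the soft tissue that lines the joint. In health it is a thin layer of lining cells over vessels and fat, and in arthritis it thickens, is entered by leukocytes and secretes cytokines and matrix-degrading enzymes. Pristane is a mineral oil component that triggers a polyarthritis driven by the immune system in susceptible rat strains, and RTD-1 is a cyclic theta-defensin of rhesus macaques with antimicrobial and immunomodulatory activity. RNA was measured in bulk tissue, in which fewer cells of a type and less RNA per cell cannot be told apart.

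The deposited table names genes by Ensembl identifier and does not pair them with symbols. None of its identifiers was found in the rat reference used here, so pathway lists, cell type markers, gene lengths and sequences are not analysed here. The tissue label was therefore not checked against marker genes, and only a few genes are named, by identifier.

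The 2 groups differed in depth. Reads in genes ran from 1541636 to 2870646 in the 8 arthritic libraries and from 5783727 to 7716834 in the 5 healthy ones, so every healthy library was deeper than every arthritic one, and depth and disease cannot be told apart within these 13 libraries. The naive libraries held 1573925 to 2396818 reads, the untreated arthritic ones 2091360 to 2536140. Across the series 13 libraries were deeper than the other 45 (a depositors' scaling factor of at least 10 megareads): all 10 healthy RTD-1 libraries and 3 arthritic saline libraries. Some genes followed that division and not disease. Of the 13062 genes tested below, 44 were higher in every one of the 13 deeper libraries than in any of the other 45, and 88 were lower. Of the 5326 called on day 5, 111 (2.08%) were of this kind. Among the 44, 41 were called lower in arthritic rats (32 at least 2-fold), against 19.7% of all genes. Among the 88, 70 were called higher (68 at least 2-fold), against 21.1% of all genes. The rule itself sets the 2 groups compared here apart, so a call was likely. The rule asks for complete separation, so the other 5215 may still differ in part with that division. The 5 healthy libraries compared here were all on the deeper side and the 8 arthritic ones all on the other. The division therefore cannot be told apart from disease in this comparison. What else besides depth set the deeper libraries apart is not given in the labels and was not tested.

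Arthritic synovium differed widely from healthy synovium on day 5 of RTD-1. Of 13062 genes with enough reads, 5326 (40.8%) changed at a Benjamini-Hochberg adjusted p under 0.05 in limma. Of these, 2758 (21.1%) were higher in the arthritic libraries and 2568 (19.7%) lower. At least 2-fold changes were seen for 2543 genes (19.5%), 1328 of them higher (10.2%) and 1215 lower (9.3%). At least 4-fold changes numbered 946 (7.24%), 471 higher (3.61%) and 475 lower (3.64%), and at least 8-fold changes 270 (2.07%), 129 higher (0.988%) and 141 lower (1.08%). The median absolute log2 fold change was 0.95 among the called genes and 0.42 over all genes tested, with a median standard error of 0.22.

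The split between higher and lower depended on the scaling. Values here were centred so that the median gene was level between libraries. On the depositors' scaling the median gene lay 0.32 lower (log2) in the arthritic libraries, and 1393 genes were called higher and 4388 lower. With scaling factors from a trimmed mean of M values the counts were 2619 and 2708. All directions in the text are therefore relative to the median gene.

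The calls were not limited to abundant genes. Genes were ranked and divided into 4 groups of like size by their mean level over the 13 libraries, on the scale log2(normalized reads + 1), where normalized reads are reads set to the median depth of the 58 libraries. The share called was 38.0% in the lowest of the 4, 32.8% in the second, 42.7% in the third and 49.6% in the highest.

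**Figure D1:**
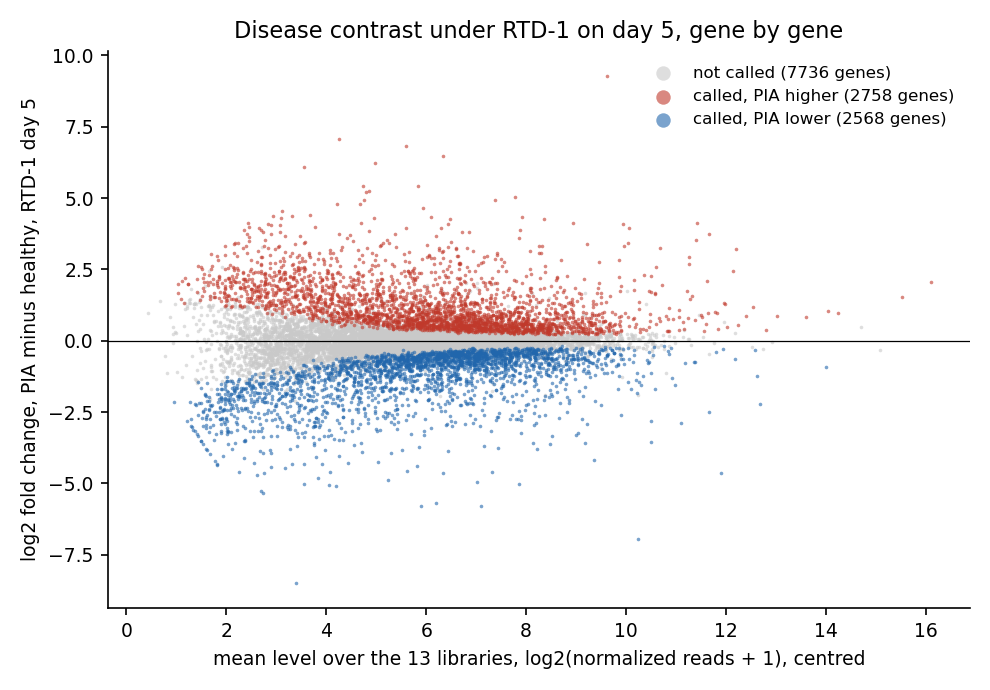
Each point is 1 of 13062 genes, with its mean level over the 13 libraries on the horizontal axis (log2 of normalized reads + 1) and its log2 fold change, arthritic minus healthy on RTD-1 day 5, on the vertical axis. Coloured points are the 2758 genes called higher and the 2568 called lower, which spread over the whole range of levels.

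The groups did not overlap for 2652 genes (20.3%), with all 8 arthritic libraries above all 5 healthy ones for 1441 genes (11.0%) and below for 1211 (9.27%). Of the 5326 called genes, 2540 (47.7%) separated the groups in this way, so the remaining called genes rested on group means with overlapping libraries.

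A few genes were found on one side alone. After every library was thinned to at most 1500000 reads, 9 genes had reads in all 8 arthritic libraries and none in the 5 healthy ones. Summed over the arthritic libraries they held a median of 55 thinned reads, 435 at most, and 8 of the 9 had a read in a naive library. In the other direction 20 genes had reads in all 5 healthy libraries and none in the 8 arthritic ones. They held a median of 43.5 thinned reads over the healthy libraries and 1388 at most. All 9 and all 20 were called, which adds no support, since both lists were chosen for separating these libraries. Of these 20 genes, 14 had no thinned read in any naive library either. For most genes of both lists, naive rats thus resembled the arthritic and not the healthy RTD-1 libraries in having reads or none.

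The 2 largest changes per direction were taken among called genes with a mean level of at least 5 and no overlap between the groups. Their separation, size and day 5 p-values follow in part from that choice and add no support. The largest increase was that of ENSRNOG00000002548. Its level in arthritic libraries 1 to 8 was 13.09, 11.07, 13.54, 13.67, 12.87, 14.32, 13.33 and 13.57, and in healthy libraries 1 to 5 it was 6.02, 1.15, 5.39, 2.97 and 4.0. Every arthritic library was far above every healthy one, although arthritic library 2 was the lowest of the 8 and the healthy libraries, with 5 to 213 reads, were widely spread. The log2 fold change was 9.28 ± 0.52 (SE, adjusted p = 1.314e-19 in limma). The corresponding difference was 9.98 on day 3 of RTD-1 and 9.58 in untreated against naive rats. In naive rats the gene lay between 3.00 and 5.31, and in untreated arthritic rats between 11.8 and 14.2.

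The second increase was that of ENSRNOG00000018570. Arthritic libraries 1 to 8 stood at 8.16, 7.12, 8.40, 9.31, 7.47, 8.46, 8.09 and 8.72, and healthy libraries 1 to 5 at 0.86, 1.73, 1.30, 1.56 and 1.48. The healthy libraries held only 3 to 9 reads of this gene, and no arthritic library came near them. The log2 fold change was 6.83 ± 0.59 (SE, adjusted p = 3.13e-13 in limma). It was 6.36 on day 3 and 5.07 in untreated rats, where the 4 arthritic libraries were uneven, from 1.76 to 8.06. The test of the difference between day 5 and the untreated state did not pass (adjusted p = 0.255 in limma).

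The largest decrease under the same rule was that of ENSRNOG00000013552, and it was the least even. Its level in arthritic libraries 1 to 8 was 10.85, 13.02, 2.50, 9.75, 7.42, 4.30, 7.22 and 5.47, from 3 to 10696 reads, against 14.91, 14.76, 13.42, 14.68 and 14.78 in healthy libraries 1 to 5. The highest arthritic library, number 2, was just below the lowest healthy one, number 3. The log2 fold change was -6.95 ± 1.15 (SE, adjusted p = 2.698e-06 in limma). With arthritic libraries 1 to 4 alone it was -5.48 (adjusted p = 0.002864 in limma), and with 5 to 8 alone -8.41. Both fits also left out the same replicate numbers of the other arthritic groups of days 3 and 5. In untreated arthritic rats the gene lay between 3.85 and 5.33, and in naive rats between 14.5 and 15.1, a log2 fold change of -10.48. On day 3 of RTD-1 it was -9.88. Neither the change from day 3 to day 5 (adjusted p = 0.660) nor that from the untreated state (adjusted p = 0.238) passed the limma test.

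The second decrease was that of ENSRNOG00000045797, with arthritic levels of 4.52, 6.34, 3.85, 4.51, 3.80, 1.34, 1.02 and 3.92 and healthy levels of 10.14, 9.44, 8.22, 9.68 and 9.85. The groups were separate, as the choice required, with arthritic library 2 again the nearest to the healthy ones and healthy library 3 again the lowest. The log2 fold change was -5.80 ± 0.66 (SE, adjusted p = 5.744e-10 in limma), with 1 to 103 reads per arthritic library. It was -7.27 on day 3 and -6.03 in untreated rats.

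Healthy RTD-1 libraries less naive ones gave log2 differences in these 4 genes of 0.14 (ENSRNOG00000002548), 0.57 (ENSRNOG00000018570), -0.30 (ENSRNOG00000013552) and -0.07 (ENSRNOG00000045797), none of which passed the limma test. Arthritic rats given saline for 5 days, set against the same 5 healthy libraries, gave log2 fold changes of 9.22, 6.46, -8.12 and -6.15 in that order. The healthy libraries are shared between those 2 sets of values. The SEs and p-values given for single genes rest on a spread estimated over all 58 libraries. With limma fitted on the 13 libraries alone, the adjusted p of arthritic against healthy was 2.655e-06, 1.004e-10, 0.004498 and 9.372e-05 in the same order.

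**Figure D2:**
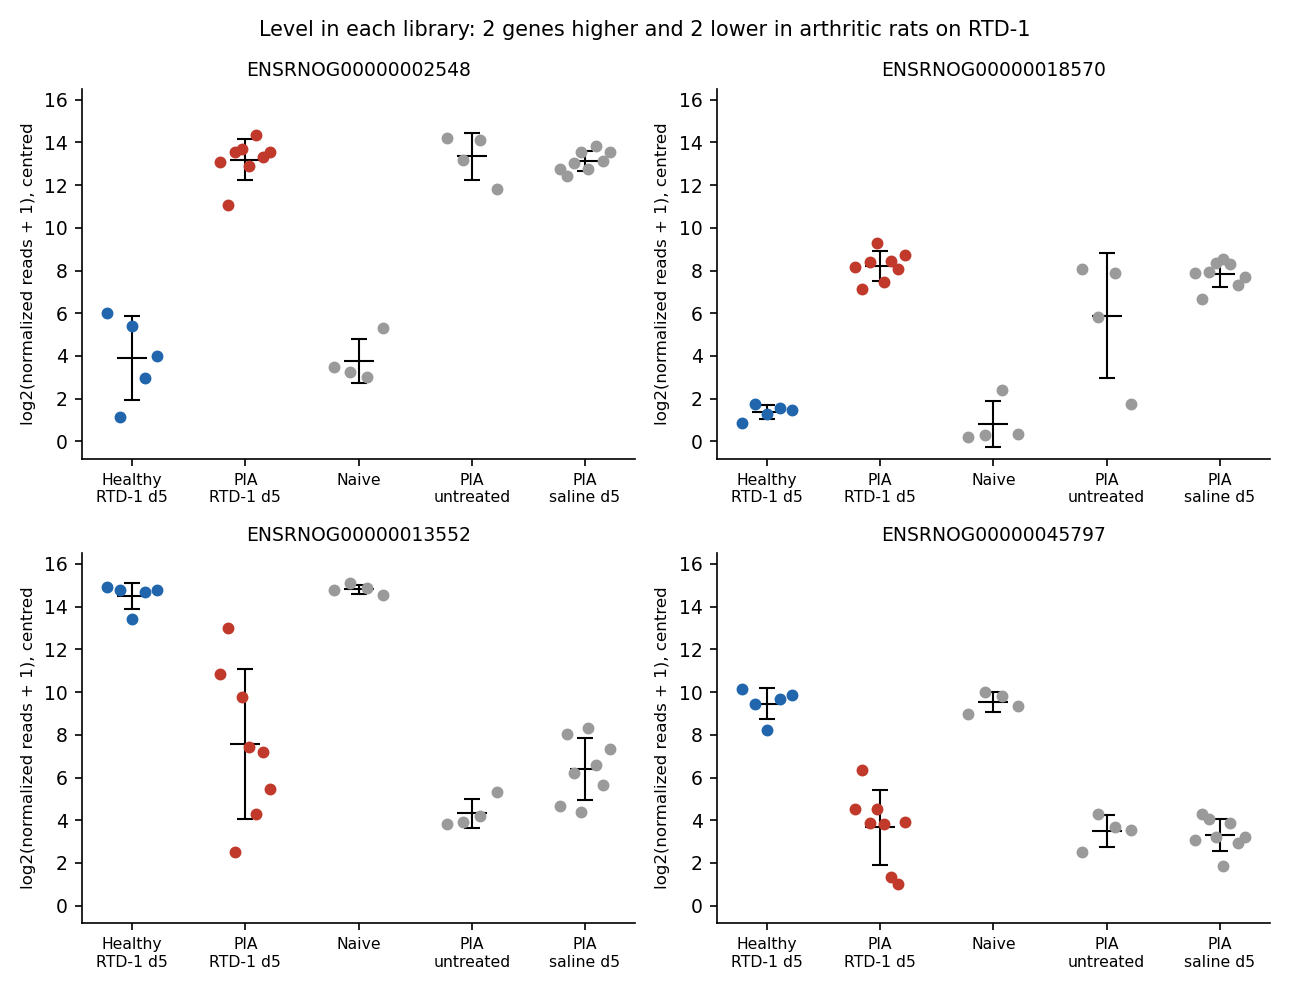
Each panel shows 1 gene, with the level of each library on the vertical axis (log2 of normalized reads + 1, centred on the median gene) and 5 groups along the horizontal axis; points are libraries and bars are means ± SD. The healthy RTD-1 and naive libraries lie together in every panel, and the arthritic RTD-1 libraries of ENSRNOG00000013552 spread from 2.50 to 13.02.

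How much of untreated arthritis was present on day 5 was read from 2 sets of genes chosen in other libraries. These were the 1356 genes called at least 2-fold higher, and the 1700 called at least 2-fold lower, in untreated arthritic than in naive rats. In that contrast 5173 genes (39.6%) were called, 2531 higher (19.4%) and 2642 lower (20.2%), and the median log2 fold changes of the sets, 1.74 and -1.92, are descriptions since it chose them. On day 5 the median log2 fold change of the higher set was 1.25 (interquartile range 0.72 to 1.89), and 1067 of its 1356 genes (78.7%) were called higher, against 21.1% of all genes, with 4 called lower. The lower set had a median of -1.18 (interquartile range -1.93 to -0.60), and 1111 of 1700 (65.4%) were called lower, against 19.7% of all genes, with 8 called higher. The contrast was smaller than in untreated rats for 1117 of the higher and 1523 of the lower set. A smaller value in a second set of libraries also follows from choosing genes by their size in the first, and its share was not tested. RTD-1 and the time that had passed both differ between the 2 contrasts, so a smaller value cannot be credited to either.

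The same held at every size of change. Genes higher in untreated arthritis with a log2 fold change of 1 to 2 had a median of 0.90 on day 5 (828 genes), those of 2 to 3 a median of 1.61 (336 genes), those of 3 to 5 a median of 2.41 (175 genes), and those of at least 5 a median of 4.12 (17 genes, all called). For genes lower in untreated arthritis the medians were -0.76 (899 genes), -1.63 (485 genes), -2.44 (281 genes) and -4.23 (35 genes, 34 called).

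Read in the other direction, the day 5 lists had a similar standing in untreated arthritis. The 1328 genes at least 2-fold higher on day 5 had a median log2 fold change of 1.49 in untreated rats. Of them, 884 (66.6%) were called higher, against 19.4% of all genes, and 5 lower. The 1215 genes at least 2-fold lower on day 5 had a median of -2.01, and 932 (76.7%) were called lower, against 20.2% of all genes, and 1 higher. For the lower genes the contrast was thus larger in untreated rats than in the libraries that had chosen them, whose median was -1.74. Genes at least 2-fold changed in the same direction in both contrasts numbered 1690, which is 55.3% of the 3056 of the untreated contrast and 66.5% of the 2543 of day 5. Only 4 were in both lists with opposite directions. Over all 13062 genes the 2 contrasts had a Pearson correlation of 0.77, a value across genes, which are not independent replicates.

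**Figure D3:**
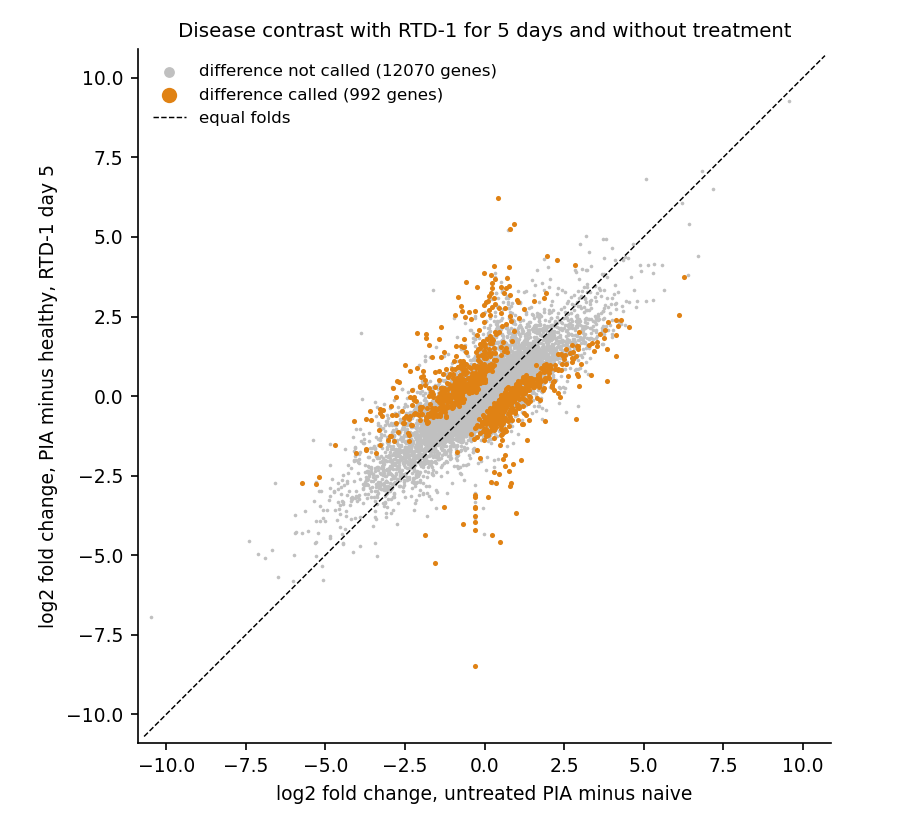
Each point is 1 of 13062 genes, with the log2 fold change of untreated arthritic against naive rats on the horizontal axis and that of arthritic against healthy rats on RTD-1 day 5 on the vertical axis. Coloured points are the 992 genes whose contrasts differed in the limma test of the difference.

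The disease contrast on day 5 was not distinguished from that on day 3 for any single gene. On day 3, 6726 genes (51.5%) were called, 3172 higher (24.3%) and 3554 lower (27.2%). The limma test of the difference between the 2 days called 0 of 13062 genes (0.0%), with 1017 genes at an unadjusted p under 0.05 and a smallest adjusted p of 0.362. limma voom on the recovered reads called 0 as well, and limma with array weights called 19. The median standard error of this difference was 0.31 and the largest absolute difference 2.95, so moderate differences of single genes were not detectable in these libraries. The 2-fold lists of the 2 days shared 2232 genes in the same direction, 87.8% of the day 5 list and 66.1% of the 3376 of day 3, and none in opposite directions. The untreated sets had medians of 1.46 and -1.63 on day 3, farther from 0 than on day 5, and 1180 of 1356 (87.0%) and 1440 of 1700 (84.7%) were called in their own direction. No library is shared between the 2 days. On both days, however, every healthy library was among the 13 deeper ones and every arthritic library among the other 45. That division therefore runs the same way in both contrasts. Its part in their likeness, or in the 0 genes called, was not tested. Across genes the correlation of the 2 contrasts was 0.93 (13062 genes).

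Against the untreated state the disease contrast differed for 992 genes (7.59%) in limma, 501 of them (3.84%) more positive on day 5 and 491 (3.76%) more negative. Drug and duration both differ between these 2 contrasts and cannot be told apart. The median absolute difference of these genes was 1.09 and the highest 8.18. Of the 992 genes, 397 were called in the untreated contrast alone, 358 on day 5 alone, 164 in both with the same direction and 61 in both with opposite directions, and 12 in neither. The direction of these differences followed the contrast that chose the genes. In the sets chosen in untreated rats, 186 genes of the higher set (13.7%) and 172 of the lower (10.1%) differed, and the contrast was smaller on day 5 for 177 and 171 of them. In the 2-fold lists chosen on day 5, 162 of the higher genes (12.2%) and 75 of the lower (6.17%) differed, and the contrast was larger on day 5 for 123 and 57 of them. Neither count says on its own whether the disease contrast was smaller on day 5. Without untreated arthritic library 2 the count of differing genes was 586. Without library 2 of the arthritic RTD-1 day 5 group it was 820, and without libraries 1 and 2 of that group 626.

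The healthy and the diseased side had parts of like size in these differences, as they did over all genes. The difference can be written as the change of arthritic synovium (RTD-1 day 5 minus untreated) less that of healthy synovium (RTD-1 day 5 minus naive). The healthy part was the larger of the 2 in 486 of the 992 genes (49.0%), against 46.6% of all genes. Its median absolute size in these genes was 0.51 and that of the diseased part 0.52. Over all genes these medians were 0.26 and 0.28, and choosing genes by the difference can enlarge both parts. Between healthy RTD-1 and naive libraries limma called 604 genes (4.62%), 321 higher (2.46%) and 283 lower (2.17%), and these groups differ in depth as well as in RTD-1. The 3 deeper saline libraries, from arthritic rats and in none of these groups, offered a separate reading. Among the 992 genes, 84.6% had the sign of the difference between other and deeper saline libraries, against 63.8% of all genes. For the 5326 genes called on day 5 the share was 58.2%, against 57.0% of all genes, and for those changed at least 2-fold it was 52.3%. How much of the 992 follows depth, or anything else that sets the deeper libraries apart, was not tested.

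One gene followed the division into 13 deeper and 45 other libraries in full. ENSRNOG00000011292 was picked after its values were seen, because its contrast differed most from the untreated state. It had 855, 1189, 1348, 1109 and 1784 reads in healthy libraries 1 to 5 and 0 in all 8 arthritic ones, where by the fraction of reads it was at least 1019.5-fold lower (floor of 3 reads over the arthritic group). Its fitted log2 fold change was -8.47 (SE 1.12, adjusted p = 1.794e-08 in limma) on day 5. After thinning to at most 1500000 reads per library it was -8.42 (adjusted p = 1.71e-08 in limma). Its level was 8.01 to 9.32 in the 10 healthy RTD-1 libraries and 8.48 to 9.20 in the 3 deeper saline libraries, which came from arthritic rats. In the other 45 libraries, the naive ones among them, it had 0 reads. Against naive rats in place of healthy RTD-1 rats, its log2 fold change was -0.03 (adjusted p = 0.990). What set the deeper libraries apart for this gene was not tested.

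Naive rats could stand in for the healthy RTD-1 rats as controls of like depth. The 8 arthritic libraries differed from the 4 naive ones in 4184 genes (32.0%), 2242 higher (17.2%) and 1942 lower (14.9%), of which 3197 were also among the 5326, in the same direction. These arthritic libraries are shared between the 2 counts, and the naive rats had no RTD-1.

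The arthritic libraries were not alike. In a principal component analysis of the 13 libraries the first component held 55.0% of the variance and separated the groups, with the healthy libraries between -76.9 and -67.2. Arthritic library 2 stood at 5.40 and library 1 at 22.8, nearest to the healthy group, and the other 6 between 45.8 and 66.4. Libraries 2 and 1 also had the most genes with reads after thinning, 15077 and 14748. The other 6 had 13603 to 14089, and the healthy libraries 14350 to 15366. In reads, library 2 (2870646) was the deepest arthritic one, but library 4 (2611011) exceeded library 1 (2265181). Whether this bears on their position was not tested. The second component (10.2%) placed libraries 1 and 2 apart from all others, at 72.2 and 39.0, against -21.5 to -0.99 for the other 6 arthritic and -21.3 to 2.29 for the healthy libraries.

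**Figure D4:**
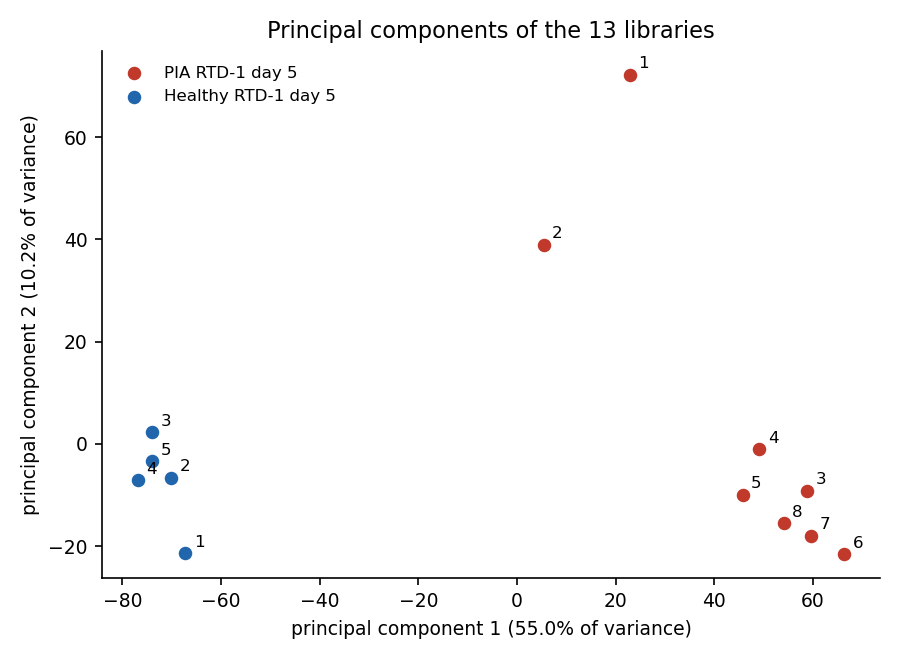
Each point is 1 of the 13 libraries, numbered by replicate, on the first principal component (horizontal, 55.0% of the variance) and the second (vertical, 10.2%). The 5 healthy libraries sit together on the left, 6 arthritic libraries on the right, and arthritic libraries 1 and 2 between them and above.

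On the gene set higher in untreated arthritis, the median log2 difference from the naive mean was 1.01, 0.85, 1.54, 1.34, 1.36, 1.57, 1.47 and 1.40 in arthritic libraries 1 to 8, and 0.06 to 0.15 in the 5 healthy libraries. On the set lower in untreated arthritis it was -0.86, -0.66, -1.42, -1.34, -1.24, -1.58, -1.50 and -1.35, against -0.23 to 0.00093 in the healthy libraries. Libraries 1 and 2 were the 2 lowest on the first set and the 2 nearest 0 on the second, and still outside the healthy range. Untreated arthritic libraries ran from 1.68 to 1.90 and from -2.27 to -1.70, beyond all 8 on both sets, though these libraries had chosen the sets. Arthritic rats given saline for 5 days ran from 1.03 to 1.58 and from -1.64 to -0.90, a range that the RTD-1 libraries other than 1 and 2 fell within.

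**Figure D5:**
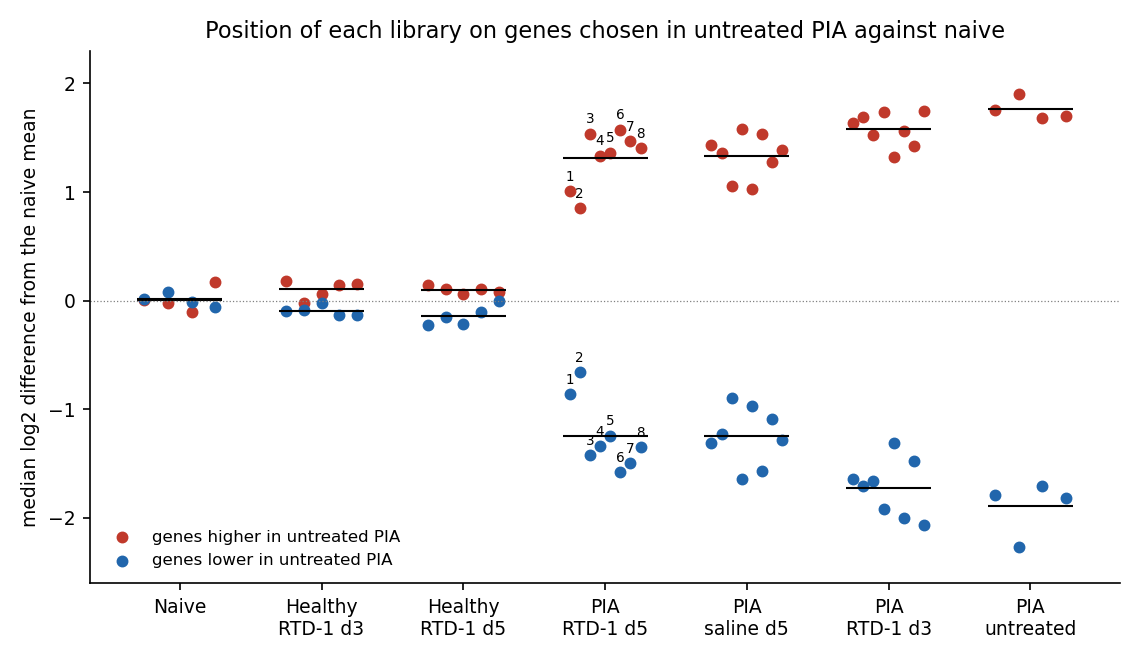
Each point is 1 library, by group, with the median log2 difference from the naive mean over the 1356 genes higher and over the 1700 genes lower in untreated arthritis on the vertical axis. The 8 arthritic RTD-1 day 5 libraries run from 0.85 to 1.57 on the first set and from -1.58 to -0.66 on the second, with libraries 1 and 2 nearest to 0.

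Gene by gene, arthritic library 2 was the closest of the 8 to the healthy mean for 502 genes (37.0%) of the higher set and 668 (39.3%) of the lower set. Library 1 was the closest for 283 (20.9%) and 355 (20.9%). Each of the other 6 was the closest for 3.76% to 10.8% of the higher set and 3.76% to 8.71% of the lower. The shares over all genes are not given here. Leaving libraries 1 and 2 aside, 5536 genes were called on day 5, 2775 of them with at least 2-fold, and the set medians were 1.37 and -1.33. The labels do not say whether libraries 1 to 4 and 5 to 8 were handled apart. Libraries 1 to 4 alone gave set medians of 1.10 and -0.98 with 4112 called genes, and libraries 5 to 8 alone 1.35 and -1.32 with 5352.

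Counted in reads, the shift took up a large part of the transcriptome. The higher set held 18.3% to 28.9% of reads in genes in the arthritic libraries (median 23.9%) and 7.55% to 9.73% in the healthy ones. The lower set held 5.13% to 11.9% and 19.96% to 22.9%. The groups were separate on both, with arthritic library 2 the nearest to the healthy ones on each, at 18.3% and 11.9%.

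Arthritic libraries also varied more among themselves. The median gene had an SD of 0.37 over the 8 arthritic and 0.26 over the 5 healthy libraries, and 9481 genes (72.6%) had the larger SD in the arthritic group. Thinned to at most 1500000 reads per library, the medians were 0.39 and 0.34, so that the gap was smaller at like depth. An SD above 1 was found for 1006 arthritic and 442 healthy genes, or 1179 and 944 after thinning. Nothing in the labels ties libraries to single animals, and every p-value here reflects library-to-library spread, part of which may be technical.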

How the data were processed

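RNA of synovial tissue was made into stranded total RNA libraries and read singly over 75 nt, as the labels' protocols state. The submitters' processing notes list HISAT and DESeq, with no version. Which build and annotation were used is not given in the sources used here. Log2 values were deposited: a whole read number was multiplied by a factor common to the library, with 0 reads held as 0.9, and whole reads were recovered for 100% of values above 0 (relative tolerance 0.001). The row without an identifier, at most 0.0115% of reads in these 13 libraries, was left out. The design had assumed reads divided by size factors, so the log2 was undone first.

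Reads were scaled to the median library, and a gene was kept where 4 or more libraries reached 10 normalized reads. limma 3.58.1 (in R 4.3.3) took log2(normalized reads + 1), centred per library on the median gene, in 1 fit of 10 group means over 58 libraries with trend and robust moderation, two-sided, adjusted by Benjamini-Hochberg over all genes. A check on simulated counts covered only the 13 compared libraries fitted alone, with the same dispersion for every gene, and not the fit of all 58. With no symbols, the rule for named genes gave the 2 largest changes per direction among called genes with a mean level of at least 5 and no overlap. Comparison, sets and lists were chosen with earlier results of these data known. Alternatives were other scalings, filters and pseudocounts, voom, array weights, thinning, other controls, a replicate block and leaving out libraries.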

Additional observations from a re-analysis of the deposited data

Results flagged for a closer look

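Within the 8 arthritic libraries, library 2 stood apart for ENSRNOG00000002548, at a level of 11.07 against 12.87 to 14.32 in the other 7. Within the 5 healthy libraries, library 3 stood apart for ENSRNOG00000013552, at 13.42 against 14.68 to 14.91 in the other 4. Such gaps were looked for in 22 groups of values and found in these 2, and chance gives about 1 in 20. The disease contrast differed between RTD-1 day 5 and the untreated state for 992 genes by the limma test of the difference itself.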

How the results depend on the processing

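The count of genes called on day 5 ran from 4112 to 6990 over 20 alternatives and from 4790 to 5471 when each of the 13 libraries was left out in turn. The 2-fold list ran from 2405 to 2693 without single libraries, and fell to 1549 with a filter of 50 normalized reads, under which fewer genes were tested. The day 5 minus day 3 difference called 0 genes in every leave-one-out fit and 19 with array weights. The difference from the untreated state ran from 586 (without untreated arthritic library 2) to 1102 genes without single libraries, and was 3611 on the deposited scaling (92 more positive, 3519 more negative), 1548 with array weights and 626 with libraries 1 and 2 of the arthritic RTD-1 day 5 group aside. Each fit chose the 2 gene sets of untreated arthritis anew by the same rule, so their members can differ between fits. The set medians ran from 1.21 to 1.31 and from -1.25 to -1.12 without single libraries, and were 0.59 and -1.76 on the deposited scaling. The cause was not tested. ENSRNOG00000011292 lost its call with naive controls (-0.03). The other 4 named genes kept direction and call under all 20 alternatives and 13 leave-one-out fits. That adds no support, since they were chosen for large changes without overlap in these same libraries.

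Replicate numbers shared by the groups did not pair the libraries: the correlations of same-numbered deviations were -0.143, 0.066, 0.079, -0.0081 and 0.025, and 2 of 5 numbers matched best with their own. With the replicate block 5054 genes were called on day 5, 2392 of them at least 2-fold, 0 for day 5 minus day 3 and 1091 for day 5 minus untreated. Thinning to at most 1500000 reads gave 5000, of which 4714 were among the 5326 in the same direction. Depth limits the arthritic libraries most, where genes of few reads per library can be missed.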
